A study of Homo sapiens with 2 samples.

Results

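The HOX genes encode homeodomain transcription factors and lie in 4 clusters, A, B, C and D. Their signals were compared between 2 samples labelled as U87, a human line established from a glioblastoma. Both were transfected with a lipid reagent, which carried a non-target siRNA into the control sample and an siRNA to the forkhead factor FOXM1 into the treated one, and RNA was taken 48 hours later. Each sample was hybridised to 1 array, so no spread between samples and no test of the siRNA could be had. Members were the probe sets to which the platform annotation gives a single gene symbol made of HOX, a cluster letter and a number. This rule reads no measured value, but the gene family was singled out with earlier results of these arrays in view, so that the counts below describe the arrays and are no independent evidence of a direction. It gave 44 of 54675 probe sets, for 28 of the 39 HOX genes in RefSeq. These were all 10 genes of cluster B, all 9 of cluster C, 8 of 9 in cluster D and 1 of 11 in cluster A. HOXD3 and the other HOXA genes were not analysed here, since the annotation pairs no probe set with any of them alone. Another 3 probe sets name a HOX gene together with other genes and were left out.

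HOX genes of the same number in different clusters are paralogues, copies of one ancestral gene, and their number follows their order along the chromosome. In the embryo the low-numbered genes are switched on early and towards the head and the high-numbered genes later and towards the tail, so that the set of active HOX genes records where along the body axis a cell arose. Adult cells in culture often keep that set. The normal forebrain is largely free of HOX transcripts, whereas glioblastomas can express them. HOX proteins bind DNA together with PBX and MEIS cofactors, and Polycomb proteins keep silent HOX genes closed.

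The start regions of 4 genes of the HOXD cluster are shown, picked because their signals differed between the arrays in opposite directions. On the array labelled FOXM1 siRNA, HOXD1 and HOXD8 were brighter and HOXD10 and HOXD11 dimmer. Each is the 250 bases before the RefSeq transcription start on build GRCh38.p14, in the 5′ to 3′ direction of the gene. Capitals mark matches to any of 6 motifs given beneath.
HOXD1 (chr2:176188418-176188667, plus strand): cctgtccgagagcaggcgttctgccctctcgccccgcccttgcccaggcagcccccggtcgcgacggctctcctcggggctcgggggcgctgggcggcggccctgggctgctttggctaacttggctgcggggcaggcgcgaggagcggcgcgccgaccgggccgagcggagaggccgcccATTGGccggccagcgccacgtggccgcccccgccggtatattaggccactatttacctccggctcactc
HOXD8 (chr2:176129455-176129704, plus strand): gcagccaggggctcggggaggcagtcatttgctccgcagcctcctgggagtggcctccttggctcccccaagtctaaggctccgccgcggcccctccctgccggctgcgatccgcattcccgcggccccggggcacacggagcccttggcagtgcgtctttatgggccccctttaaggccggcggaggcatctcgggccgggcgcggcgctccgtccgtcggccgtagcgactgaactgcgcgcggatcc
HOXD10 (chr2:176116528-176116777, plus strand): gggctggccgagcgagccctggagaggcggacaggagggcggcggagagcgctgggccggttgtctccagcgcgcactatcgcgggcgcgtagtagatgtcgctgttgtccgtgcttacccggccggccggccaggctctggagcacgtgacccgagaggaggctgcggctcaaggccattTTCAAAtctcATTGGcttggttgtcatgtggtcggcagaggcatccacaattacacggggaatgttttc
HOXD11 (chr2:176107030-176107279, plus strand): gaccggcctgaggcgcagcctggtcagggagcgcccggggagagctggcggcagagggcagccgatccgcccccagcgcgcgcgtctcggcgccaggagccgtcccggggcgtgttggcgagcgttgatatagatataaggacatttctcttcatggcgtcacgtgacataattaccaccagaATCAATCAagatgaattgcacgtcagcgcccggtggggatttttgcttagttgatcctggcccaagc

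The motifs, searched on both strands, were the TATA box (TATAAA), the CCAAT box (CCAAT), the core site of nuclear receptors such as those for retinoic acid (AGGTCA), a composite site of PBX and HOX proteins (TGATNNAT), the forkhead core (TAAACA) and the cell cycle element CHR (TTTGAA). The capitals are a CCAAT match in HOXD1, a CHR and a CCAAT match in HOXD10, and a PBX-HOX match in HOXD11. HOXD8 held none of the 6. No marked matches overlapped in these 4 windows. The RefSeq table held a start region for 11 of the 28 genes, and HOXC4 and HOXC5 share theirs. A CCAAT match was present in 9 of the 11, against 32% of all 35116 start regions in the table. A PBX-HOX match was present in 3 of 11 (6.47% of all), a CHR match in 3 (13.3%), a forkhead match in the shared HOXC4 and HOXC5 region and so in 2 (11%), a TATA match in 1 (10.7%) and a nuclear receptor site in 0 (12.1%). The windows of HOXD1, HOXD8, HOXD10 and HOXD11 hold 31, 28, 23 and 23 CG dinucleotides, against a median of 11 over all start regions. All 4 windows lie at or above the upper quartile of 23, and those of the other 7 genes below it, from 4 for HOXD4 to 21 for HOXD13. The 4 were picked by their signals, and HOXD4 and HOXD13, both dimmer on the array labelled FOXM1 siRNA, were not among them. A match describes these letters and is not evidence of binding.

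Most HOX genes were dimmer on the array labelled FOXM1 siRNA. The lowest median difference was that of numbers 9 to 13 over all clusters, and of numbers 4 to 8 within HOXB. A floor for faint signals was set on each array from olfactory receptor probe sets, at 60.8 for the array labelled non-target and 77.7 for the other, and a gene was represented by its brightest probe set. Of the 44 probe sets, 38 had the lower deposited signal on the array labelled FOXM1 siRNA, as had 47.7% of all 41097 probe sets with a single symbol. Of the 28 genes, 25 passed the floor of 1 or both arrays. Their median difference was -1.23 on the log2 scale, FOXM1 siRNA minus non-target, or 2.35-fold lower, against -0.02 over all genes. A signal lower by 2-fold or more was found for 16 of these 25 (64%), where the share was 15.4% of all 13865 genes above a floor. HOXD1 alone was higher by 2-fold or more, against 16.0% of all genes. Of the 25, 5 passed the floor through the non-target array alone and 1 through the other alone, and those 6 had to differ. Among the 19 above the floor on both arrays, 13 were lower by 2-fold or more (68.4%) and 0 higher, where the shares were 14.8% and 15.3% of all such genes. Of these 19, 18 were below 0 and their median was also -1.23, where the median of all genes above both floors was -0.03. Differences of 4-fold or more downwards were found for 9 of the 25, against 4.08% of all genes.

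**Figure D1:**
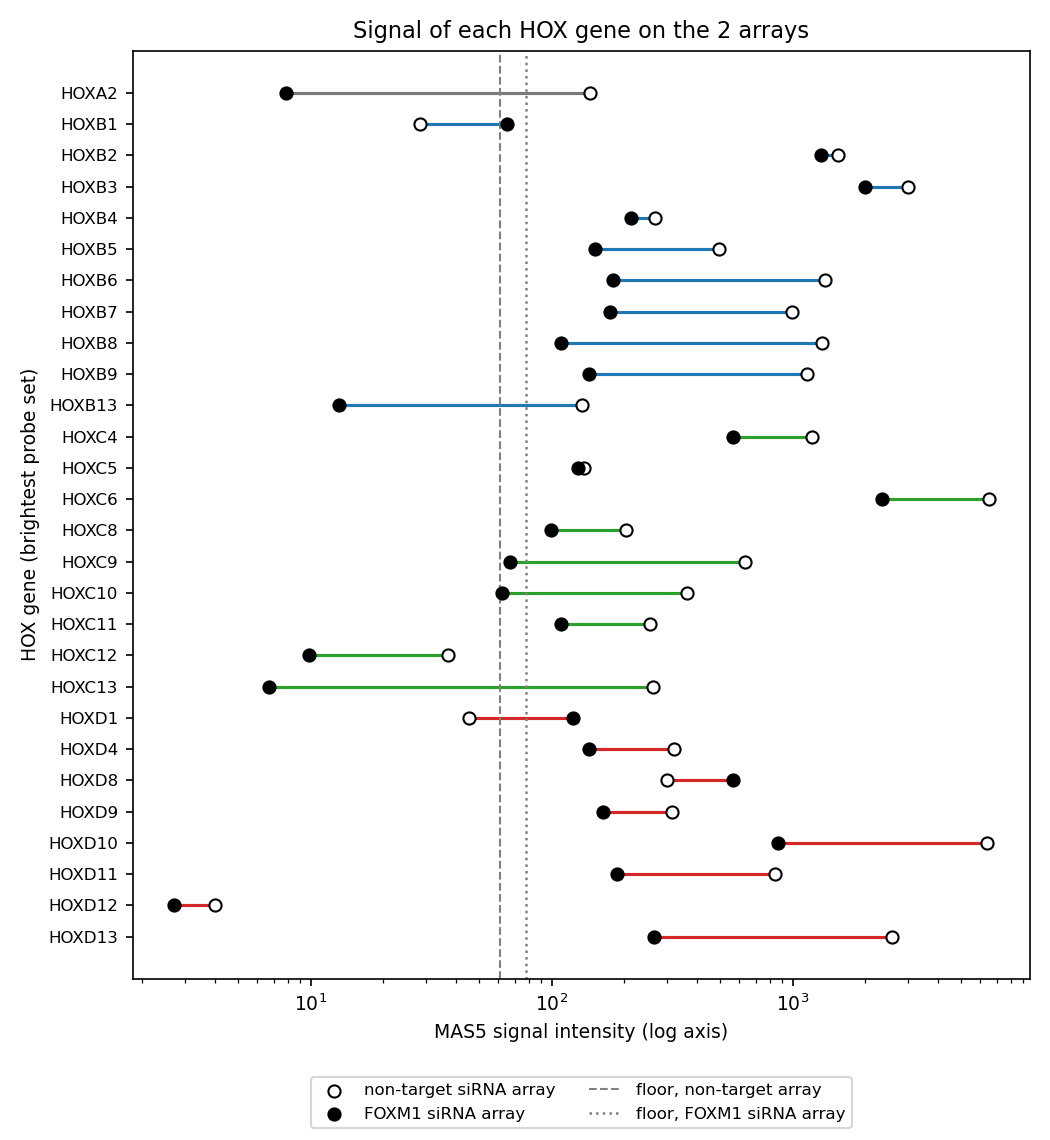
MAS5 signal intensity (log axis) of the brightest probe set of each of the 28 HOX genes on the array labelled non-target siRNA (open points) and the array labelled FOXM1 siRNA (filled points), with the floor of each array as a broken line and lines coloured by cluster. The open point lies to the right for all but HOXB1, HOXD1 and HOXD8; HOXB1, HOXC12 and HOXD12 lie below the floor on both arrays.

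These values come from 1 array per group. The only error available is the disagreement between probe sets of one gene within the arrays, an SD of 0.46 on the log2 scale per probe set over 5476 genes. FOXM1 itself read 1520 on the control array and 1343 on the other, a log2 difference of -0.18, which is within that SD and so gave no check of the labels. CDKN2A, a gene that U87 cells are known to lack, read 3467 on the array labelled non-target and 421 on the other, and MTAP next to it 619 and 76.3. An effect of the siRNA on HOX genes and a difference between the cells of the 2 samples therefore cannot be told apart. The ratio of 3′ to 5′ signal of ACTB, a sign of RNA quality, was 6.79 on the array labelled non-target and 4.21 on the other, and its part in the HOX differences was not tested. Of the labelled cell type's markers, 7 of 9 passed a floor, 1 of them lower by 2-fold or more (15.4% of all genes) and 1 higher (16.0%). The summed signal of all 9 was 1576 on the array labelled non-target and 1465 on the other. SOX2 was the largest part of the first sum and SOX9 of the second. GFAP and AQP4 lay below the floor on both arrays and OLIG2 read 270.3 and 266. SOX2 read 680 and 59.2, the latter below the floor, and NES 54.0, below the floor, and 261. SOX9 read 325 and 613, or 1.89-fold higher, with a second probe set 2.26-fold higher. PDGFRA was 1.71-fold and FABP7 at least 1.53-fold higher, and S100B at least 1.13-fold lower. In a bulk sample, fewer cells with a transcript and less transcript per cell cannot be told apart.

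In the HOXB cluster, the difference changed between HOXB4 and HOXB5. HOXB2, active in the embryonic hindbrain, read 1538 on the array labelled non-target and 1303 on the array labelled FOXM1 siRNA, a log2 difference of -0.24. HOXB3, its neighbour in the hindbrain, read 3003 and 1992 (-0.59). HOXB4, known as a regulator of blood stem cell growth, read 267 and 213 (-0.32). All 3 were under 2-fold. From HOXB5 to HOXB9 every gene read lower by 3-fold or more. HOXB5, the first of them, read 493 and 151, or 3.26-fold lower. HOXB6, a trunk gene, read 1358 and 179.7, or 7.56-fold lower. HOXB7 read 991 and 175, or 5.67-fold lower. HOXB8, known for its role in myeloid progenitors and microglia, had the lowest log2 difference of the HOX genes above the floor on both arrays. It read 1320 and 109 (-3.60, 12.1-fold lower). HOXB9, with roles in the rib cage, read 1141 and 142, or 8.02-fold lower. The cluster ends with HOXB13. This posterior gene, known from the prostate, read 133 and 13.1; the second value lies below the floor, so that it was at least 1.71-fold lower. HOXB1 lay below the floor on both arrays, at 28.3 and 65.1.

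Other probe sets of these genes gave the same direction where they could be measured, except for HOXB3. The 3 probe sets of HOXB7 gave log2 differences of -2.75, -2.50 and -1.54, and the other ones of HOXB5 and HOXB9 gave -1.32 and -1.67. The second HOXB3 probe set, with signals of 75.7 and 78.1 close to the floor, gave 0.04. The second probe set of HOXB6 lay below the floor on both arrays (50.4 and 60.7), and that of HOXB8, at 62.4 and 5.90, gave no fold, so that the differences of these 2 genes rest on 1 probe set each. HOXB5, HOXB6, HOXB7 and HOXB8 were read by probe sets of the _s_at or _x_at kind, whose probes can match several transcripts. Without such probe sets the 5 genes left with a fold had a median of -0.59, and HOXB9, read by an ordinary probe set, kept its 8.02-fold.

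In the HOXC cluster all 8 genes above a floor were below 0, with a median of -1.35. Over all genes, 6878 of the 13449 with a value were below 0. HOXC9, HOXC10 and HOXC13 passed the floor on the control array alone and could only be below 0. The 5 HOXC genes above both floors had a median of -1.09. HOXC6, which marks thoracic levels of the embryo, read 6509 on the array labelled non-target and 2345 on the other, or 2.78-fold lower. HOXC4, at the start of the cluster, read 1199 and 563 (2.13-fold lower). HOXC5 read 136 and 129 (1.05-fold lower). The gene models of HOXC4, HOXC5 and HOXC6 overlap and begin at the same base in RefSeq, so their signals may share transcripts. HOXC8, a thoracic gene, read 202 and 99.4 (2.03-fold lower, just past the threshold). HOXC9, a gene of the trunk, read 633 and 66.9, the latter below the floor, and was at least 8.14-fold lower. HOXC10, active at hindlimb level, read 362 and 61.8, also below the floor, and was at least 4.66-fold lower. These 2 were thus seen on the control array alone. HOXC11 read 255 and 109, or 2.35-fold lower. HOXC13, a gene of hair and nail, read 264 and 6.69 and was at least 3.39-fold lower. With the floor doubled (2 times) HOXC8, HOXC11 and HOXC13 were under 2-fold, at -0.38, -0.72 and -0.76 on the log2 scale, and with a pseudocount of 50 HOXC8 and HOXC11 were at -0.76 and -0.94. HOXC12 lay below the floor on both arrays, at 37.1 and 9.80. Of 9 HOXC genes, 8 were thus above the floor on the control array and 5 on the other.

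In the HOXD cluster HOXD4, HOXD10, HOXD11 and HOXD13 were dimmer on the array labelled FOXM1 siRNA, and HOXD1 and HOXD8 brighter. HOXD13, which patterns the digits, read 2566 on the array labelled non-target and 266 on the array labelled FOXM1 siRNA, or 9.66-fold lower. Its second probe set read 651 and 48.8, at least 8.37-fold lower, and its dimmest one read 120 and 8.87, at least 1.55-fold lower. HOXD10, active in the limb and the lumbar spinal cord, read 6387 and 865 in its brightest probe set. Its 3 probe sets gave log2 differences of -2.88, -3.34 and -2.97, with an SD of 0.24. HOXD11, which patterns the forearm, read 847 and 187, or 4.54-fold lower. HOXD9 read 315 and 163, a log2 difference of -0.95. Its other probe set went the opposite way, 11.4 and 95.3, at least 1.57-fold higher, so that no direction was settled for HOXD9.

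On the other side, HOXD8 read 300.3 and 566, or 1.89-fold higher, and was the only HOX gene above the floor on both arrays with a difference above 0. HOXD1, the first gene of the cluster, read 45.5, below the floor, and 122, and was at least 2-fold higher. Its second probe set was below both floors, at 27.8 and 7.59. HOXD1 passed the 2-fold threshold by a small margin, in a probe set of the _s_at kind, and reached it in 2 of 7 alternatives. Between them, HOXD4 read 322 and 143 (2.26-fold lower), and its second probe set, with 93.8 and 24.4, was at least 1.21-fold lower. HOXD4 was under 2-fold with the median of its probe sets (-0.72) and with a pseudocount of 50 (-0.95). HOXD12 lay below the floor on both arrays, at 3.99 and 2.69. HOXA2, the only HOXA gene with a member probe set and active in the hindbrain, read 144 and 7.90 and was at least 1.85-fold lower.

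Grouped by paralogue number, the median log2 difference was -0.42 for the 4 genes above a floor with numbers 1 to 3, -1.17 for the 11 with numbers 4 to 8 and -2.20 for the 10 with numbers 9 to 13. Lower by 2-fold or more were 0 of the 4, 8 of the 11 and 8 of the 10, where the share was 15.4% of all genes above a floor. Among the 4, HOXA2 and HOXD1 passed the floor of 1 array alone and have only bounds. HOXA2, at 144 and 7.90, had a bound of -0.89 and was at -1.74 with a pseudocount of 50, so the 0 depends on the floor. Of the 10 with numbers 9 to 13, 4 passed the floor on the control array alone and had to differ. Group 4 was read by HOXB4, HOXC4 and HOXD4, at -0.32, -1.09 and -1.17. Group 5 held HOXB5 (-1.71) and HOXC5 (-0.07), group 6 HOXB6 (-2.92) and HOXC6 (-1.47), and group 7 HOXB7 alone (-2.50). Group 8 spread most widely, from -3.60 for HOXB8 over -1.02 for HOXC8 to 0.92 for HOXD8. In group 9, HOXB9 was 8.02-fold and HOXC9 at least 8.14-fold lower, and the brightest probe set of HOXD9 was 1.94-fold lower but its other one higher. Group 10 held HOXC10 (at most -2.22) and HOXD10 (-2.88), and group 11 held HOXC11 (-1.23) and HOXD11 (-2.18). Group 13 held HOXB13 (at most -0.77), HOXC13 (at most -1.76) and HOXD13 (-3.27), where the first 2 are bounds set by the floor. By cluster, the medians of numbers 4 to 8 and 9 to 13 were -2.50 and -1.89 in HOXB, the latter with the HOXB13 bound. They were -1.06 and -1.99 in HOXC, the latter with 3 bounds, and -0.13 and -2.53 in HOXD.

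**Figure D2:**
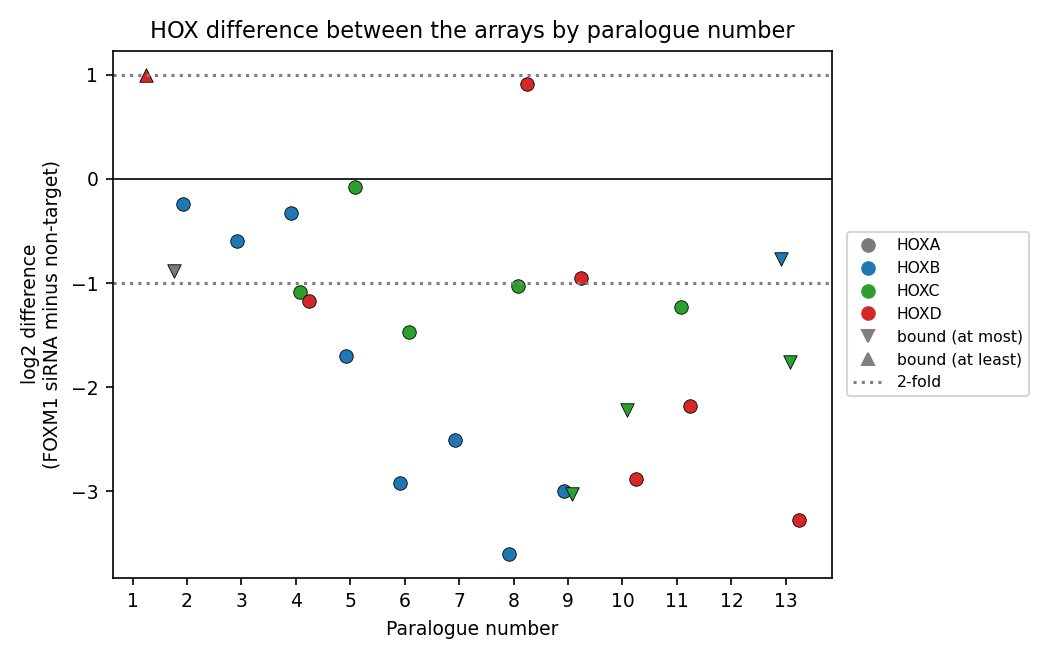
Log2 difference (FOXM1 siRNA minus non-target) against paralogue number for the 25 HOX genes above a floor, coloured by cluster. Triangles are bounds and dotted lines mark 2-fold; values of the genes numbered 9 to 13 lie between -3.27 and -0.77, and those of HOXD1 and HOXD8 lie above 0.

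Across the 25 genes, number and log2 difference had a Spearman rho of -0.54 and a Pearson r of -0.51. Across the 19 genes above both floors rho was -0.53. The points share both arrays, lie next to each other in clusters and include bounds, so this describes the 2 arrays only. Within clusters rho was -0.70 for 9 HOXB genes, -0.57 for 8 HOXC genes and -0.86 for 7 HOXD genes. Without HOXA2 and HOXD1 it was -0.45 over 23 genes.

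Noncoding RNAs from within the clusters went both ways. Of 18 in a list drawn up for this comparison, 11 had a probe set with a single symbol and 9 of these lay above a floor. Lower by 2-fold or more were 3 of these 9 (15.4% of all genes above a floor), and 3 were higher (16.0%). The median of the 9 was -0.01. HOXB-AS3, which overlaps HOXB5 and HOXB6, read 804 and 80.6, or 9.97-fold lower, and all 5 of its probe sets were below 0. HOTAIR, a long noncoding RNA from between HOXC11 and HOXC12 on the opposite strand that is known for its link to Polycomb, read 373 and 42.7, the latter below the floor, and was at least 4.79-fold lower. HOXA11-AS, from the high-numbered end of the HOXA cluster, read 281 and 94.1, or 2.99-fold lower. These were the 3 dimmer RNAs. HOXD-AS2, which lies next to HOXD8, read 290.5 and 1089.5, or 3.75-fold higher. HOXB-AS1, between HOXB2 and HOXB3, read 126 and 335, or 2.67-fold higher, and its second probe set was 1.74-fold higher. HOTTIP, from beyond HOXA13, read 65.3 and 145, or 2.22-fold higher, but its other 2 probe sets lay below the floor. HAGLR, which begins beside HOXD1, read 254 and 445 (1.75-fold higher), with a second probe set at least 2.64-fold higher.

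Noncoding RNAs did not always go the way of the genes beside them: HOXB-AS1 was brighter between genes that were slightly dimmer. HOXA-AS2 read 131 and 130 (-0.01) and HOXA-AS3 140 and 16.0, at least 1.80-fold lower. HOXC-AS3 and HAGLROS lay below the floor on both arrays. A probe set assigned to the microRNA gene MIR10A, which lies between HOXB4 and HOXB5, where the HOXB difference changed, was added after its value was seen. It read 324 and 126, or 2.58-fold lower. The array reads poly-A RNA from that gene and not the mature microRNA. The mature form is shown to identify the gene, with its seed (bases 2 to 8) in capitals, from RefSeq on build GRCh38.p14 (chr17:48579904-48579926, minus strand).
hsa-miR-10a-5p: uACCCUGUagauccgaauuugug

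**Figure D3:**
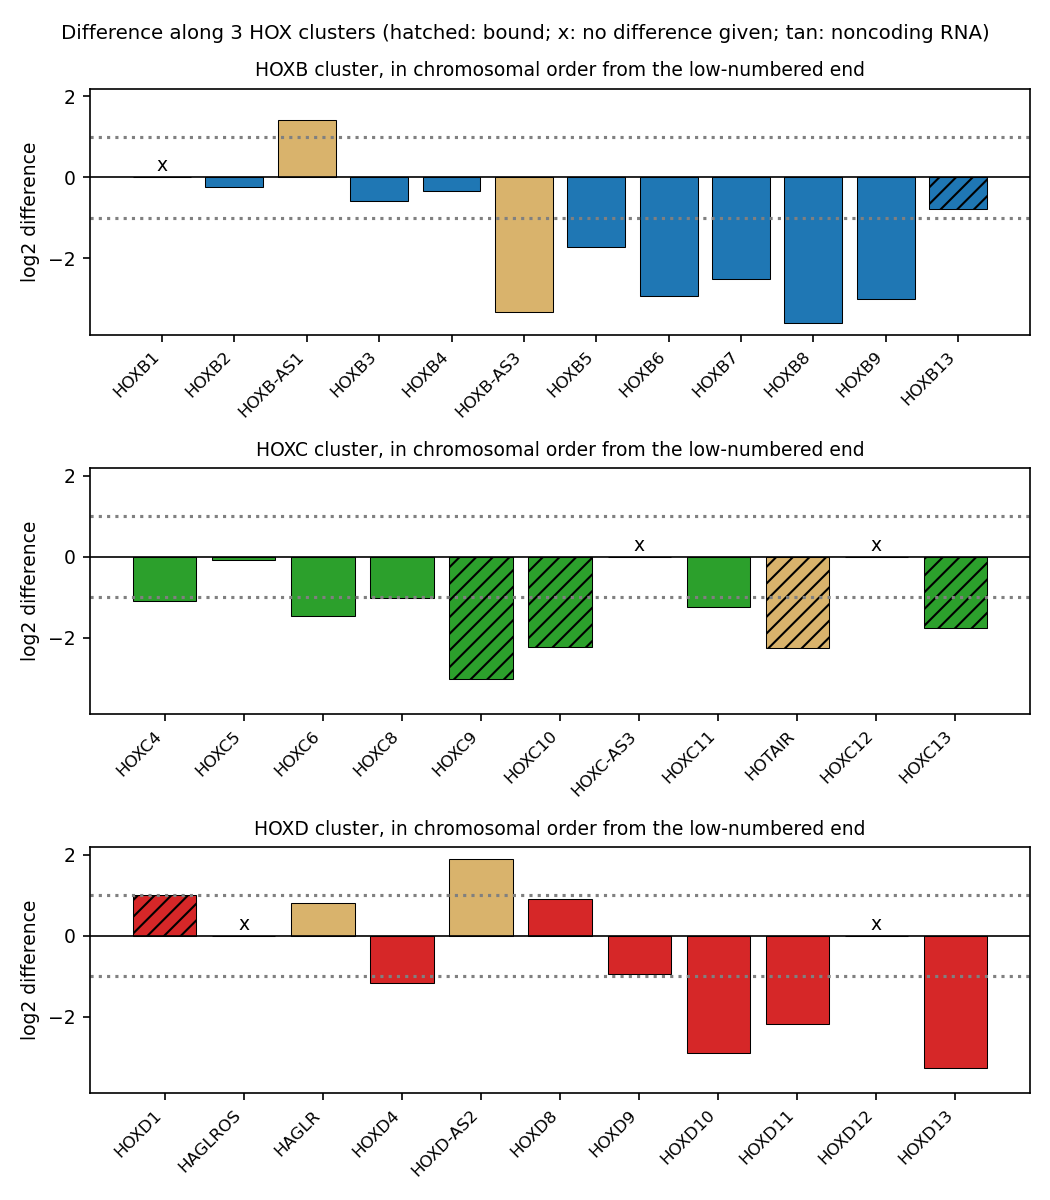
Log2 difference (FOXM1 siRNA minus non-target) of HOX genes and noncoding RNAs (tan) in chromosomal order along the HOXB, HOXC and HOXD clusters, with hatched bars for bounds, x where both signals lie below the floor and dotted lines at 2-fold. Bars of the HOX genes are short up to HOXB4 and long from HOXB5 to HOXB9 in the top panel, and in the bottom panel those of HOXD1 and HOXD8 point up and those of HOXD10, HOXD11 and HOXD13 down.

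Genes flanking the clusters did not follow them. The 5 protein-coding genes with a probe set nearest each end of each cluster gave 40 genes, of which 34 lay above a floor. Of these, 30 differed by less than 2-fold, 2 were lower by more than that (against the 15.4% above) and 2 higher, and the median was -0.01. The nearest of them beyond HOXD13, LNPK, which shapes the endoplasmic reticulum, read 872 and 1429 (1.64-fold higher). The nearest beyond HOXD1, MTX2, a mitochondrial import protein, read 3834 and 3979 (1.04-fold higher). The nearest beyond HOXC4, SMUG1, a DNA repair glycosylase, read 839 and 748. None of the 17 genes above a floor around HOXC and HOXD passed 2-fold. The 4 that passed lie farther out: SNX10 (11.1-fold lower) and NFE2L3 (at least 5.97-fold lower) beside HOXA, and NFE2L1 (2.38-fold higher) and COPZ2 (20.0-fold higher) beside HOXB. EVX1, a homeobox gene next to HOXA13, lay below the floor on both arrays, as did SKAP1 and TTLL6, the nearest at the ends of HOXB.

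Cofactors of HOX proteins passed the threshold about as often as other genes. Of 8 measured PBX, MEIS and PKNOX genes, all above a floor, 2 were lower by 2-fold or more and 1 higher, and the median was 0.03; over all genes the shares were 15.4% and 16.0%. MEIS1 read 730.1 and 276, or 2.65-fold lower, although its second probe set, at 111 and 108, gave -0.05. PKNOX2 read 314 and 71.6, at least 4.04-fold lower, and a dim probe set of it gave 0.71. MEIS3 read 90.1 and 298, or 3.31-fold higher, and its second probe set was at least 2.37-fold higher. PBX3 and MEIS2 differed by less, with log2 differences of -0.17 and 0.59.

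Regulators that silence or open the clusters were listed from general knowledge. Of 12 Polycomb genes, all above the floor on both arrays, 2 were lower and 2 higher by 2-fold or more, 8 differed by less, and the median was -0.53, where 14.8% and 15.3% of all genes above both floors were lower and higher. CBX2, a reader of the Polycomb mark, read 1306 and 146, or 8.98-fold lower, while 2 further probe sets gave -0.80 (a bound) and -0.78. EED, a core subunit of the methylating complex, read 5826 and 2221, or 2.62-fold lower. PHC2 and PHC3, subunits of the compacting complex, were 3.98-fold and 2.37-fold higher, the latter with 2 further probe sets at -0.03 and -0.53. The methylase gene EZH2 was 1.73-fold lower. Of 11 genes for trithorax proteins, H3K27 demethylases and their partners, 2 were lower by 2-fold or more and 0 higher, and the median was -0.34; the share lower is near the 14.8% of all such genes. These were KMT2A, the methylase that keeps HOX genes active, and the demethylase gene KDM6A. KMT2A was 2.19-fold lower, and its further probe sets above both floors, mostly under 2-fold, ran from 1.21-fold to 2.62-fold lower. KDM6A was 2.01-fold lower, with further probe sets 3.33-fold and at least 1.21-fold lower.

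Retinoic acid switches on low-numbered HOX genes in the embryo. Of 13 measured genes of this pathway, 11 lay above a floor, of which 4 were higher by 2-fold or more (16.0% of all genes) and 2 lower (15.4% of all genes); the median was 0.17. Genes of 2 synthesis enzymes differed in opposite directions. ALDH1A2 read 2025 and 12.3, at least 26.0-fold lower, with a dim second probe set at least 1.19-fold lower, and ALDH1A3 read 714 and 15593, or 21.8-fold higher. CYP26A1, which degrades retinoic acid, read 260.2 and 19.0 and was at least 3.35-fold lower, and CYP26B1, which does the same, was 2.08-fold higher. CRABP2, which carries retinoic acid to its receptors, was 2.11-fold higher. The receptor genes RARA and RARB were at 0.17 on the log2 scale each in their brightest probe sets. A second RARB probe set above both floors gave -0.98, and dimmer RARA probe sets gave bounds of -0.18 and -0.04. The other receptor genes differed more. RARG read 16.1, below the floor, and 123, and was at least 2.02-fold higher. RXRA and RXRB were at -0.63 and -0.72, with dimmer RXRB probe sets giving bounds of -0.40 and 0.47. RXRG lay below the floor on both arrays. Of the 3 CDX genes, activators of the middle HOX genes, CDX2 was at least 1.58-fold lower and the other 2 lay below the floor.

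Other genes that mark position were set beside the HOX genes. Of 17 measured forebrain and midbrain patterning genes, 11 lay above a floor, 8 of them lower by 2-fold or more (15.4% of all genes) and 1 higher (16.0%). Their median over the 10 with a fold was -1.41, and of the 11, 5 passed the floor through 1 array alone. The midbrain gene EN2 read 1304 and 83.5, or 15.6-fold lower, LHX2 was 4.15-fold, EMX2 at least 4.09-fold and DLX2 3.08-fold lower, while LHX6 was 2.39-fold higher. Of 18 limb and mesoderm genes, 12 lay above a floor, 4 of them higher by 2-fold or more (16.0% of all genes) and 2 lower (15.4%), and the median was 0.68 over the 9 with a fold. PRRX1 read 156 and 3026, or 19.3-fold higher, SHOX2 was 11.6-fold and TBX15 9.43-fold higher. TWIST2, a mesodermal factor, was 2.29-fold lower.

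Markers of other cell types also differed between the arrays. Of 6 mesenchymal markers 5 passed a floor, 4 of them higher by 2-fold or more (16.0% of all genes above a floor). The summed signal of all 6 was 22995 on the array labelled non-target and 61106 on the array labelled FOXM1 siRNA. VIM, which read 21179 and 40017 (1.89-fold higher), made up most of both sums, and THY1 lay below the floor on both arrays. COL1A1, a fibrillar collagen gene, read 1119 and 11394 in its brightest probe set, and its further probe sets gave log2 differences from -0.06 to 1.94. Of 6 epithelial markers 5 passed a floor, 2 of them lower by 2-fold or more (15.4% of all genes). The summed signal of all 6 was 12763 and 1104, and DSP, which read 9707 and 336, made up most of that sum on the first array. KRT18 read 2655 and 379.7, KRT8 had a log2 difference of 0.27, EPCAM was at least 1.62-fold higher, CDH1 was at least 1.45-fold lower and KRT19 lay below the floor on both. Of 5 neuronal markers 2 passed, MAP2 and SNAP25, both higher by 2-fold or more (16.0% of all genes), and RBFOX3, STMN2 and SYP lay below the floor on both. The summed signal of all 5, with those below the floor, was 316 and 2975. Of 5 blood and endothelial markers only PECAM1 passed, and the summed signal of all 5 was 193 and 205. The part of these markers in the HOX differences was not tested.

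**Figure D4:**
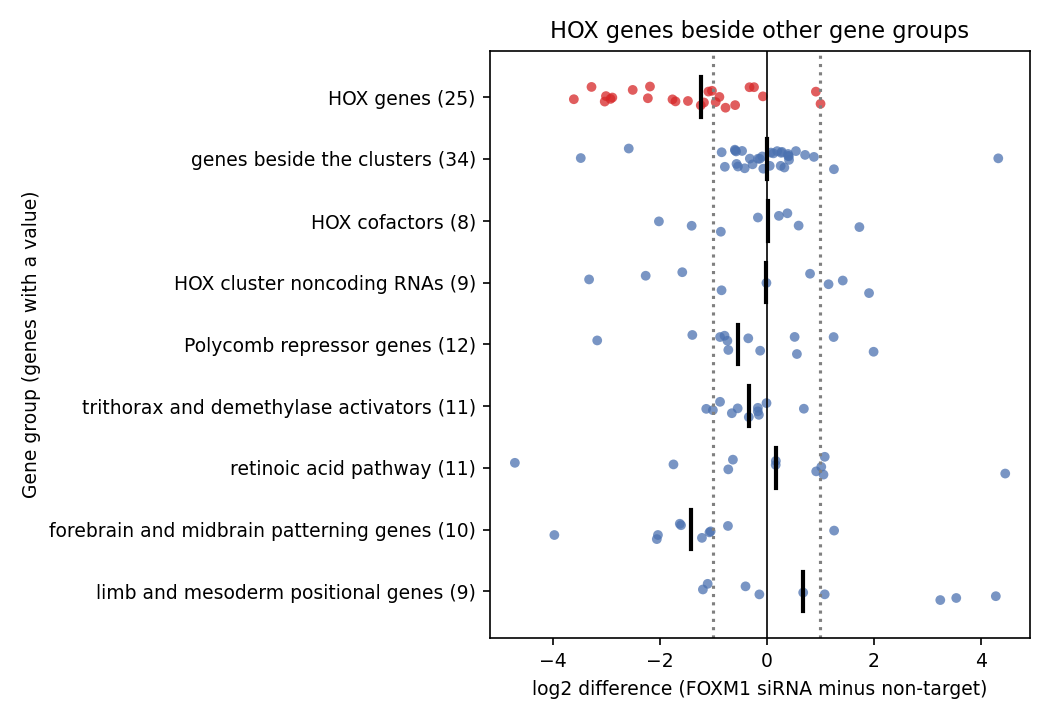
Log2 difference (FOXM1 siRNA minus non-target) of the HOX genes, the genes beside the clusters and 7 gene lists; each point is a gene with a fold or a bound, thick bars are medians and dotted lines mark 2-fold. The HOX median lies at -1.23 and that of the flanking genes at -0.01.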

How the data were processed

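The 2 samples gave 1 array each. RNA was labelled from the poly-A tail with a 3′ IVT kit, per the labels' protocols. The deposited linear signal intensities were made by the authors with MAS5, per the submitters' processing notes; for its version and settings the sources used here give nothing. Both arrays have a trimmed mean intensity of 500.1 (2% trimmed per end), and 53.2% and 50.5% of probe sets lay above the floor. The number of arrays limits the precision.

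Log2 differences were computed from the deposited intensities. The floor was the 90th percentile of 135 olfactory receptor probe sets per array; lower values were raised to it. The probe set brightest by mean log2 signal stood for its gene. With 1 array below the floor the fold is a bound, worded "at least" ("at most" for negative log2 values); with both below, or a bound under 1, none is given. Symbols came from the platform annotation, updated by gene ID (RefSeq, GRCh38.p14). Named are all HOX genes, the genes nearest the clusters and, per list, up to 4 members differing by 2-fold or more. All measured noncoding RNAs, CYP26B1, the RAR and RXR genes, CDX2, EZH2, PBX3, MEIS2, LHX6 and the cell type markers were named after their values were seen. The HOX genes, lists and alternatives were chosen with earlier results of these data known. Scripts were tested on simulated data (Python 3.11.15, numpy 2.4.6, pandas 2.3.3, scipy 1.17.1).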

Additional observations from a re-analysis of the deposited data

How the results depend on the processing

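The count of HOX genes at least 2-fold lower was 16, and between 13 and 19 with quantile normalization, with hybridisation controls set equal, without a floor, with the floor doubled (2 times), with the median of probe sets or with a pseudocount of 50. Without _x_at and _s_at probe sets it was 10, of 19 genes left above a floor; the HOXB median was then -0.59 and the HOXD median -1.68. The count at least 2-fold higher, 1 gene (HOXD1), was 2 without a floor and 0 with quantile normalization, controls set equal, the higher floor, the pseudocount or without those probe sets. HOXA2, the single HOXA gene, was at -4.18 without a floor and -1.74 with the pseudocount, both below the bound of -0.89, and had no value with the higher floor. The HOX median ran from -1.59 to -1.06, and that of all genes from -0.30 to 0.05. The share of all genes past 2-fold is given for the main setting only, so the counts under the alternatives stand without one. Setting the controls equal moved the median of all genes from -0.02 to -0.30 and that of the HOX genes to -1.54. Of 164 values of single HOX genes under these alternatives, 148 moved by no more than the SD per probe set and 0 reversed. Many of these could not have moved further, so the tally is no measure of robustness. Setting the controls equal shifts every gene by the same 0.30, which is under that SD. Several alternatives leave a gene with 1 probe set above both floors unchanged. Cases where a gene had no value under an alternative are not in the tally. HOXD9 was at -0.15 with the median of its probe sets. No paired analysis was possible because each group has 1 array.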
